A study of Mus musculus with 6 samples.

Results

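The 40 genes described here belong to the integrated stress response and to amino acid supply: stress factors and their feedback genes, enzymes that make amino acids, amino acid transporters, and the ligases that load amino acids onto transfer RNA. They were chosen by name, as ATF4-type targets and amino acid genes, with earlier results of these data known. All 40 were found among the 47593 gene rows of the deposited table. The cells were c-Kit-selected cells from mouse femur marrow, c-Kit being a receptor tyrosine kinase on early blood cells. They carried the MSCVneo retrovirus with the leukaemia fusion MLL-AF9, were selected with G418 and passed serially through methylcellulose with cytokines. There were 3 RNA-seq libraries of cells with MLL-AF9 E531R, whose substitution in the AF9 part the series describes as ending the binding of the corepressor BCOR, and 3 of cells with MLL-AF9 WT. All cells of both groups therefore held a virus-borne MLL-AF9. The labels name neither mouse strain nor age, and do not say that replicates came from separate cultures or animals, so p-values measure the spread between these libraries, which may be technical.

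In the integrated stress response, kinases that sense stress phosphorylate the initiation factor eIF2, which slows most translation while the transcription factor ATF4 is made in larger amounts. ATF4 binds DNA with partners of the C/EBP family and raises genes for amino acid uptake, amino acid synthesis and tRNA charging, and PERK, haem-regulated and amino acid-sensing kinases all feed into it. Dividing blood cells also use these genes without acute stress, because growth needs a steady supply of amino acids.

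Reads assigned to genes ran from 14161139 to 33459668 per library. Values are normalised read counts, the authors' gene counts divided by 1 size factor per library. The 8 progenitor markers summed to between 302688 and 315439 in E531R libraries and to between 211648 and 263104 in WT libraries, mostly from Mpo, Elane and Prtn3. Of the 8 markers Cd34, Cebpe, Mpo and Prtn3 were called higher in E531R and Flt3 lower (5.98 in E531R and 42.6 in WT). These were 62.5%, beside 19.9% of all tested genes. Flt3 reached the minimum mean of 10 for a test only through the WT libraries. Kit, Elane and Ms4a3 did not pass over all 6 libraries. Without WT replicate 3 Elane was called higher (log2 fold change 0.39) and Kit lower (-0.11), and Ms4a3 did not pass. The summed neutrophil markers (12 genes) ran from 72980 to 80465 in E531R libraries and from 7362 to 9879 in WT libraries. The 12 macrophage and monocyte markers summed to between 9896 and 11227 in E531R libraries and to between 1280 and 1466 in WT libraries, with C1qa, C1qb and C1qc at 0 or near it in both. Every tested marker of both lists was called higher in E531R, 11 of 11 and 8 of 8, beside 10.4% of all tested genes. Mmp9 (mean 5.14 in WT) and Cx3cr1 (5.7 in WT) reached the minimum mean only through the E531R libraries. Retnlg, Ly86, C1qa, C1qb and C1qc lay under it and were not tested. Megakaryocyte markers summed to between 412 and 438 in E531R libraries and to between 97.4 and 130 in WT libraries. Sums of erythroid, mast cell and B cell markers were at most 468 in any library, and Hba-a1, Cd3e, Ms4a1 and Fcer1a were at 0 throughout. The markers of T and NK cells summed to between 261 and 288 in E531R libraries and to between 623 and 775 in WT libraries, nearly all from Nkg7. Those of stroma and endothelium summed to between 1435 and 1547 in E531R libraries and to between 5558 and 6457 in WT libraries, nearly all from Pecam1. In bulk RNA a change in the share of a cell type and a change of RNA per cell cannot be told apart, and the part of these shifts in the results below was not tested.

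WT replicate 3 stood apart from the other libraries. Over 12569 tested genes its deviation from the gene mean rose by 0.460 on the log2 scale per 10 points of GC content, while the slopes of the other 5 libraries lay between -0.124 and -0.065. Among the 39 members that could be tested, WT replicate 3 lay above the mean of WT replicates 1 and 2 in 30, with a median distance of 0.23 on the log2 scale. Among all 12991 tested genes it lay above in 7317, with a median distance of 0.08. Counts of calls are therefore given over all 6 libraries and again without WT replicate 3.

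**Figure D1:**
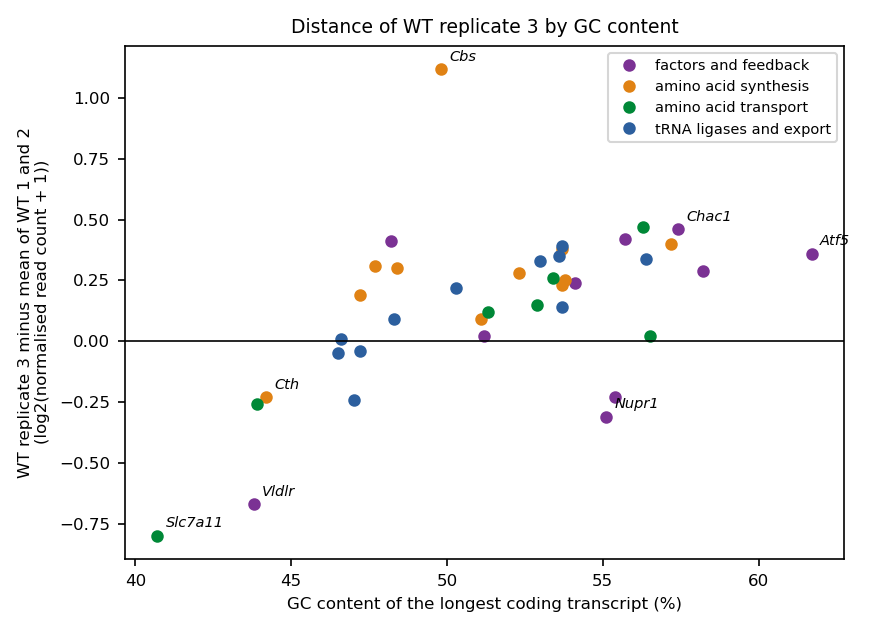
Each point is 1 of the 39 tested members, placed on the x axis by the GC content of its longest coding transcript in percent and on the y axis by the distance of WT replicate 3 from the mean of WT replicates 1 and 2, on the log2(normalised read count + 1) scale; colours are roles. Slc7a11, the member with the lowest GC content (40.7%), lies at -0.80, and Chac1 (57.4%) at 0.46.

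That distance followed GC content among the members as it did among all genes. For members below 48% GC the median distance of WT replicate 3 was -0.14, and it was above the mean of the other WT libraries in 3 of 10. From 48% to 54% GC the median was 0.26, with 18 of 18 above, and over 54% GC it was 0.34, with 9 of 11 above. Over all tested genes the medians in these ranges were -0.33, 0.16 and 0.33. WT replicate 3 lay above in 1191 of 4963, 2822 of 4015 and 3101 of 3591 of those genes. Across the 39 members the Pearson correlation of distance with GC content was 0.54, against 0.58 across the 12569 genes. All points share the same 3 libraries, so these values describe them only.

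Between E531R and WT few of the 40 genes differed, and those that did went both ways. Cth, Chac1 and Asns rose in E531R, and Slc1a4, Got1 and Vldlr fell, although Vldlr reached the minimum mean of 10 only through the WT libraries. These were 3 higher and 3 lower of 39 tested at a limma adjusted p under 0.05. Over all 12991 tested genes 10.4% were called higher and 9.53% lower, so the share among the members, 15.4% in both directions together, was close to that of all genes (19.9%). The median log2 fold change of the members was 0.00 and that of all genes 0.01. The 3 E531R values lay above all 3 WT values in 10 of the 39 members and below them in 5, where the same held for 21.2% and 22.8% of all tested genes. Slc7a3 lay under the minimum mean of 10 and was not tested.

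Without WT replicate 3, 16 of 37 tested members were higher and 2 lower in E531R. The number of calls over all 13012 genes also grew, to 24.4% higher and 22.9% lower, so that the members' total of 48.6% again lay close to that of all genes (47.2%). The members' direction was less even than that of all genes, and their median log2 fold change was 0.09, with -0.01 over all genes. Of the 13 members called only without this library, 13 were higher in E531R, and in 11 of them WT replicate 3 lay above the mean of the other WT libraries. With a trend on GC content and transcript length removed from each of the 6 libraries, 8 members were higher and 3 lower, beside 16.2% and 16.8% of 12569 genes.

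**Figure D2:**
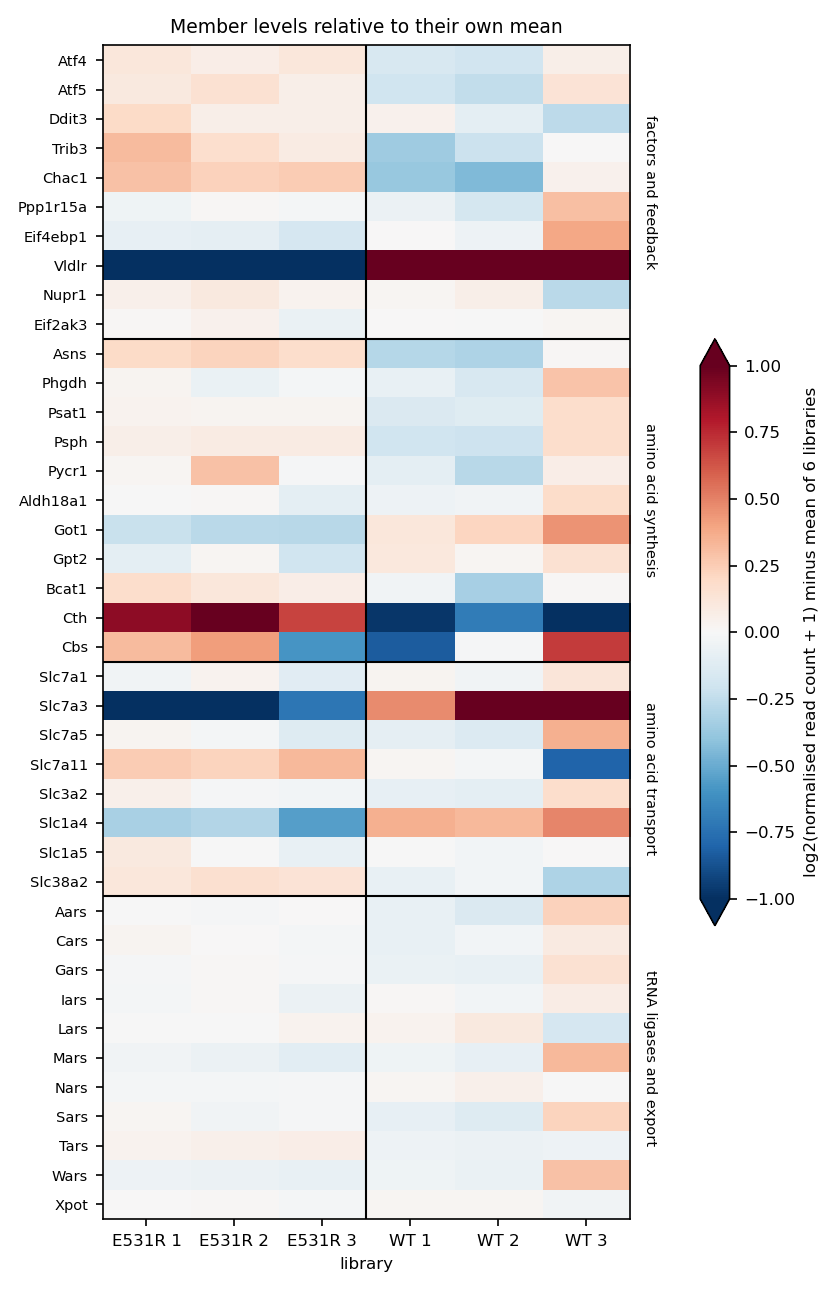
Rows are the 40 members, grouped by role, and columns the 3 E531R libraries (left) and the 3 WT libraries; colour is log2(normalised read count + 1) minus the gene's mean over the 6 libraries, with the scale ending at -1 and 1. Cth is high and Slc1a4, Got1, Vldlr and Slc7a3 are low in all 3 E531R libraries, the block of tRNA ligases is pale, and WT replicate 3 differs from the other WT libraries in many rows.

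Cth encodes cystathionine gamma-lyase, the enzyme that releases cysteine from cystathionine in the transsulfuration pathway. It lies on chromosome 3 (157894248 to 157925077, minus strand, GRCm38). Its normalised read count was 582, 704 and 498 in E531R libraries 1, 2 and 3, against 158, 192 and 148 in WT libraries 1, 2 and 3. No value of a group lay within the other, and the lowest E531R library stood far above the highest WT library. The means were 595 ± 103 in E531R and 166 ± 22.9 in WT (SD, n = 3 each), 3.58-fold higher in E531R, or 1.83 on the log2 scale with a standard error of 0.16 (limma adjusted p = 0.000298). This was the largest rise among the members, and the call held without WT replicate 3 (1.75 on the log2 scale, limma adjusted p = 3.29e-09) and after removal of the GC and length trend (1.67, limma adjusted p = 8.6e-05).

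Cbs, cystathionine beta-synthase, makes the cystathionine that Cth cleaves, and it was barely detected. It had 17, 13 and 6 reads in E531R libraries 1, 2 and 3, against 3, 8 and 20 in the WT libraries, and the groups overlapped. Its log2 fold change of 0.09 had a 95% interval from -1.05 to 1.23. Counts per kilobase use the longest coding transcript of each gene, 1815 bases for Cth and 6226 for Cbs, which need not be the one expressed. On that scale a normalised count of 328 for Cth stood beside 1.62 for Cbs in E531R cells, and 91.4 beside 1.59 in WT cells.

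Slc7a11, the cystine-glutamate exchanger that brings in cysteine in its oxidised form, had 1180, 1157 and 1240 in E531R libraries, against 1002, 975 and 568 in WT libraries. All E531R values lay above all WT values, and WT replicate 3 was far below its partners. The log2 fold change of 0.54 had a 95% interval from 0.03 to 1.05 and did not pass over all genes (limma adjusted p = 0.136). The difference was smaller but passed without WT replicate 3, at 0.27 (limma adjusted p = 0.000302). Removal of the GC and length trend also left it past the threshold (0.29, limma adjusted p = 0.023). Slc3a2, the heavy chain that carries Slc7a11 and Slc7a5 to the membrane, averaged 5729 ± 163 in E531R and 5727 ± 621 in WT (SD, n = 3 each), 0.01 apart on the log2 scale (limma adjusted p = 0.975). Without WT replicate 3 the difference was 0.09 and passed narrowly (limma adjusted p = 0.0499).

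Chac1, which cleaves glutathione in the cytosol and is a late target of the ATF4 branch, had 395, 378 and 384 in E531R libraries, against 247, 237 and 332 in WT libraries. The groups did not overlap, and WT replicate 3 was the nearest WT library. The log2 fold change was 0.52 (SE 0.14; limma adjusted p = 0.0435). Without WT replicate 3 it was 0.67 (limma adjusted p = 2.74e-06), the largest rise among the stress factors and feedback genes. The gene lies on chromosome 2 (119351229 to 119354381, plus strand). The call over all libraries was lost without any 1 of the other 5 libraries (limma adjusted p between 0.105 and 0.156), with a log2 fold change between 0.42 and 0.53.

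Asns, asparagine synthetase, a classical target of amino acid shortage, had 5383, 5487 and 5310 in E531R libraries, against 3877, 3796 and 4751 in WT libraries. The groups did not overlap. The means were 5393 ± 88.6 in E531R and 4141 ± 529 in WT (SD, n = 3 each). On the log2 scale the difference was 0.39, with a standard error of 0.098 (limma adjusted p = 0.0332). It was 0.49 without WT replicate 3 (limma adjusted p = 9.64e-09). The Asns call was also lost without any 1 of the other 5 libraries (limma adjusted p between 0.0899 and 0.136), while the log2 fold change stayed between 0.33 and 0.40. The gene lies on chromosome 6 (7675169 to 7693254, minus strand).

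**Figure D3:**
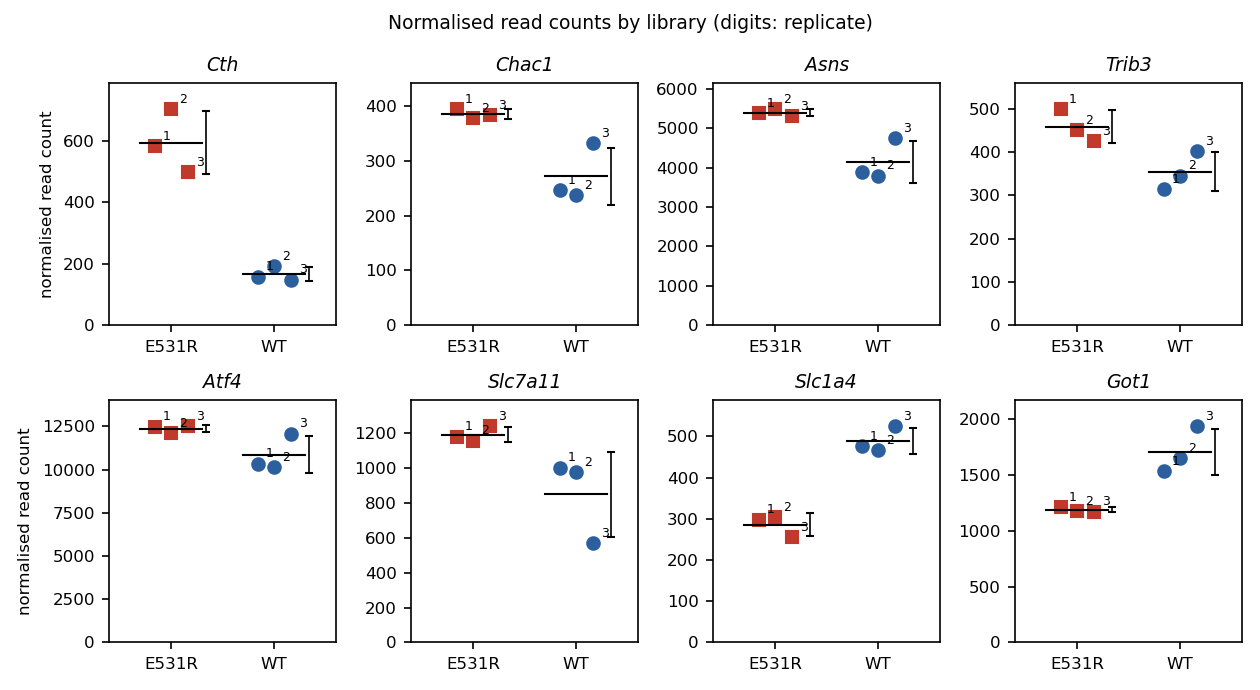
Normalised read counts of 8 members on linear y axes from 0, with 1 point per library (red squares E531R, blue circles WT, digits the replicate number), a bar at the mean and an error bar of 1 SD (n = 3 each). Cth, Chac1, Asns, Trib3, Atf4 and Slc7a11 lie higher and Slc1a4 and Got1 lower in E531R, and WT replicate 3 is set off from the other WT points in most panels.

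The upstream genes showed small differences. Atf4, the transcription factor of the response, had 12494, 12134 and 12514 in E531R libraries, against 10342, 10143 and 12077 in WT libraries. The lowest E531R library stood just above WT replicate 3. The log2 fold change of 0.19 (95% interval -0.01 to 0.40) did not pass (limma adjusted p = 0.172), and without WT replicate 3 it was 0.27 and passed (limma adjusted p = 7.93e-06). After removal of the GC and length trend it passed too (0.25, limma adjusted p = 0.00389). ATF4 is controlled largely at translation, which these values do not measure. Per kilobase of the longest coding transcript Atf4 had the highest level of all members, 7177 in E531R and 6292 in WT.

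Eif2ak3, which encodes PERK, the eIF2 kinase of the endoplasmic reticulum, had 852, 869 and 805 in E531R libraries, against 844, 840 and 855 in WT libraries. The groups overlapped fully. Its log2 fold change of -0.01 had a 95% interval from -0.17 to 0.15, and without WT replicate 3 from -0.12 to 0.11.

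Trib3, a pseudokinase that ATF4 induces and that restrains it, had 500, 451 and 426 in E531R libraries, against 314, 346 and 403 in WT libraries. All E531R values lay above the WT values. The log2 fold change of 0.38 missed the threshold (limma adjusted p = 0.0713), and it was 0.47 and passed without WT replicate 3 (limma adjusted p = 0.000168). Atf5, a related transcription factor that is also controlled at translation, had 2333, 2426 and 2275 in E531R libraries, against 1903, 1837 and 2405 in WT libraries. WT replicate 3 lay among the E531R values. The difference was 0.20 on the log2 scale (limma adjusted p = 0.258), and 0.33 without WT replicate 3 (limma adjusted p = 8.92e-06). Exons of Atf5 overlap those of Nup62 and Il4i1 on the opposite strand, and no source used here says whether reads were counted by strand. Nup62 averaged 5558 in E531R and 5746 in WT, and Il4i1 averaged 4.82 in E531R and 7.22 in WT.

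Ddit3, which encodes the stress factor CHOP, had 226, 206 and 206 in E531R libraries, against 204, 185 and 165 in WT libraries. The values did not overlap but the lowest E531R and the highest WT library lay next to each other. Its log2 fold change of 0.21 did not pass (limma adjusted p = 0.262), nor did that of 0.13 without WT replicate 3 (95% interval -0.09 to 0.34; limma adjusted p = 0.318). Ddit3 exons overlap those of Mars, which is far more abundant, on the opposite strand. Ppp1r15a, the phosphatase subunit that ends eIF2 phosphorylation, and Nupr1, a small stress-induced chromatin protein, had log2 fold changes of -0.04 and 0.13 and did not pass in either fit. Eif4ebp1, a translation repressor that ATF4 induces, averaged 1785 ± 60.8 in E531R and 2103 ± 361 in WT (SD, n = 3 each), with a log2 fold change of -0.22 that did not pass (limma adjusted p = 0.261), nor did that of -0.09 without WT replicate 3 (limma adjusted p = 0.126).

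Vldlr, a lipoprotein receptor that ATF4 raises under stress, was low in both groups and nearly absent in E531R. It had 1, 2 and 2 reads in E531R libraries, against 13, 20 and 17 reads in WT libraries. The WT level was 12.6-fold higher over the pooled reads, with an exact 95% counting interval from 5.06 to 40.6. Its limma log2 fold change was -3.00 (SE 0.39; limma adjusted p = 0.00182), and it passed the minimum mean of 10 only through the WT libraries, at 10.28. Without any 1 of the WT libraries it fell below that minimum and had no test.

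The enzymes of amino acid synthesis were the role with the most calls over all 6 libraries, 2 higher and 1 lower of 11 (27.3%, beside 19.9% of all genes). The stress factors and feedback genes had 1 higher and 1 lower of 10 (20%). Without WT replicate 3 the enzymes again had the most, 6 higher and 1 lower of 10 (70%, beside 47.2%). With the GC and length trend removed the order changed. The enzymes then had 3 higher and 1 lower of 11 (36.4%, beside 33% of all genes). The stress factors and feedback genes had 4 higher and 1 lower of 10 (50%). The serine pathway runs through Phgdh, Psat1 and Psph. Psat1, its aminotransferase, had 12899, 12856 and 12864 in E531R libraries, against 11431, 11616 and 14213 in WT libraries. WT replicate 3 was the highest of all 6, and the other WT libraries were the lowest. The log2 fold change was 0.06 (limma adjusted p = 0.706), and 0.16 without WT replicate 3 (limma adjusted p = 0.00114).

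Psph, the phosphatase of the last step, had 1421, 1445 and 1441 in E531R libraries, against 1189, 1181 and 1544 in WT libraries, the same arrangement. On the log2 scale Psph differed by 0.15 (limma adjusted p = 0.414), and 0.28 without WT replicate 3 (limma adjusted p = 7.46e-05). Its exons overlap those of Cct6a on the opposite strand, which averaged 10720 in E531R and 11696 in WT. Phgdh, the dehydrogenase of the first step, averaged 8480 ± 277 in E531R and 8778 ± 1491 in WT (SD, n = 3 each), and did not pass in either fit (log2 fold change -0.04, and 0.10 with limma adjusted p = 0.0564 without WT replicate 3). A pseudogene, Phgdh-ps1, is annotated, so the count of Phgdh is uncertain.

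Got1, the cytosolic aspartate aminotransferase, fell. It had 1213, 1178 and 1171 in E531R libraries, against 1534, 1646 and 1935 in WT libraries. The groups did not overlap, and WT replicate 3 was the farthest from E531R. The means were 1187 ± 22.4 in E531R and 1705 ± 207 in WT (SD, n = 3 each). On the log2 scale the difference was -0.52, with a standard error of 0.097 (limma adjusted p = 0.0102). It was -0.42 without WT replicate 3 (limma adjusted p = 1.79e-06), and the call was lost without E531R replicate 2 (limma adjusted p = 0.0546) or 3 (0.0547), with -0.51 in both. Got1 lies on chromosome 19 (43499752 to 43524605, minus strand). Gpt2, the mitochondrial alanine aminotransferase, had a log2 fold change of -0.18 that did not pass (limma adjusted p = 0.185).

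Bcat1, the cytosolic aminotransferase of branched-chain amino acids, had 542, 520 and 502 in E531R libraries, against 468, 381 and 483 in WT libraries. A small gap separated the groups. On the log2 scale Bcat1 differed by 0.24 (limma adjusted p = 0.189), and 0.30 without WT replicate 3 (limma adjusted p = 0.0063). Pycr1, which makes proline in mitochondria, had 240, 291 and 235 in E531R libraries, against 222, 196 and 249 in WT libraries, and the groups overlapped. Its log2 fold change was 0.20 (limma adjusted p = 0.355), and 0.28 without WT replicate 3 (limma adjusted p = 0.0427). Aldh18a1, which acts before Pycr1 in the same pathway, had -0.06 and did not pass in either fit.

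Of the 7 tested transporters 0 rose and 1, Slc1a4, fell with limma over all 6 libraries (14.3%, beside 19.9% of all genes). At an unadjusted p under 0.05 there were 3 of 7, beside 4245 of all 12991 tested genes. Without WT replicate 3 the calls were 3 higher and 1 lower (57.1%, beside 47.2%). After removal of the GC and length trend they were 1 and 1 (28.6%, beside 33%). Slc1a4 exchanges alanine, serine and cysteine. It had 298, 305 and 255 in E531R libraries, against 477, 467 and 525 in WT libraries, with no overlap. The means were 286 ± 26.9 in E531R and 490 ± 30.9 in WT (SD, n = 3 each). On the log2 scale the difference was -0.78, with a standard error of 0.10 (limma adjusted p = 0.00212). It was -0.73 without WT replicate 3 (limma adjusted p = 3.37e-06). The gene lies on chromosome 11 (20302180 to 20332713, minus strand). Its close relative Slc1a5, the main glutamine transporter of many dividing cells, averaged 7962 ± 478 in E531R and 7865 ± 103 in WT (SD, n = 3 each), with a log2 fold change of 0.02 and a 95% interval from -0.15 to 0.18.

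Slc38a2, the amino acid transporter that adapts to shortage, had 4764, 4927 and 4850 in E531R libraries, against 4192, 4333 and 3570 in WT libraries. The groups did not overlap, and WT replicate 3 was the lowest. Its log2 fold change of 0.27 missed the threshold (limma adjusted p = 0.0774), and without WT replicate 3 that of 0.19 passed (limma adjusted p = 0.000541). After removal of the GC and length trend it was 0.08 and did not pass (limma adjusted p = 0.386). Slc7a5, the transporter of large neutral amino acids, and Slc7a1, the main arginine and lysine transporter, had log2 fold changes of -0.08 and -0.07 and did not pass in either fit. Slc7a3, a second transporter of basic amino acids, had 2, 2 and 3 reads in E531R libraries, against 5, 12 and 24 reads in WT libraries. Its level in WT was 7.39-fold higher over the pooled reads (exact 95% counting interval 3.28 to 19.5). The authors' deposited table called Slc7a3 lower in E531R (log2 fold change -1.31 with its sign turned to E531R over WT, adjusted p = 0.0051), as did DESeq2 on the recovered reads, at -2.77.

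The tRNA ligases were the most even role. Of the 10 ligases and Xpot, the exporter of transfer RNA from the nucleus, 0 of 11 were called with limma over all 6 libraries, 0 with an unadjusted p under 0.05, 0 with edgeR and 0 with DESeq2. Of all tested genes limma called 19.9% and edgeR 20.4%, and DESeq2 called 15.2% of the genes to which it gave an adjusted p. An unadjusted p under 0.05 with limma was found for 4245 of all 12991 tested genes. The means of these 11 members were high, from 3001 to 11191 in E531R and from 2997 to 11488 in WT. Their 95% intervals of the log2 fold change together spanned -0.40 to 0.25, and without WT replicate 3 the span was -0.14 to 0.18. Changes larger than these bounds would lie outside every interval.

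Without WT replicate 3 the ligases Tars, Aars and Sars passed, at 0.11, 0.11 and 0.10 on the log2 scale (limma adjusted p = 0.018, 0.0236 and 0.042). These were 3 of 11 (27.3%), beside 47.2% of all genes. Tars, the threonine ligase, had 5992, 6059 and 6115 in E531R libraries, against 5633, 5606 and 5651 in WT libraries, with no overlap and no step in WT replicate 3. Aars, the alanine ligase, had 11125, 11050 and 11142 in E531R libraries, against 10571, 10071 and 13086 in WT libraries. Sars, the serine ligase, had 4833, 4663 and 4738 in E531R libraries, against 4514, 4363 and 5571 in WT libraries. In Aars and Sars WT replicate 3 was the highest library and the other WT libraries were the lowest, and their log2 fold changes over all 6 libraries were both -0.01. Cars, Gars, Iars, Lars, Mars, Nars, Wars and Xpot did not pass in either fit. The 10 other cytosolic ligases, which were not among the 40 genes, also had 0 calls over all 6 libraries with limma, edgeR and DESeq2. Of them 2 had an unadjusted p under 0.05, as did 4245 of all 12991 tested genes. Without WT replicate 3 these 10 ligases had 1 higher and 5 lower (60%, beside 47.2% of all genes). Their median log2 fold change was then -0.06, beside 0.02 for the 10 member ligases.

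**Figure D4:**
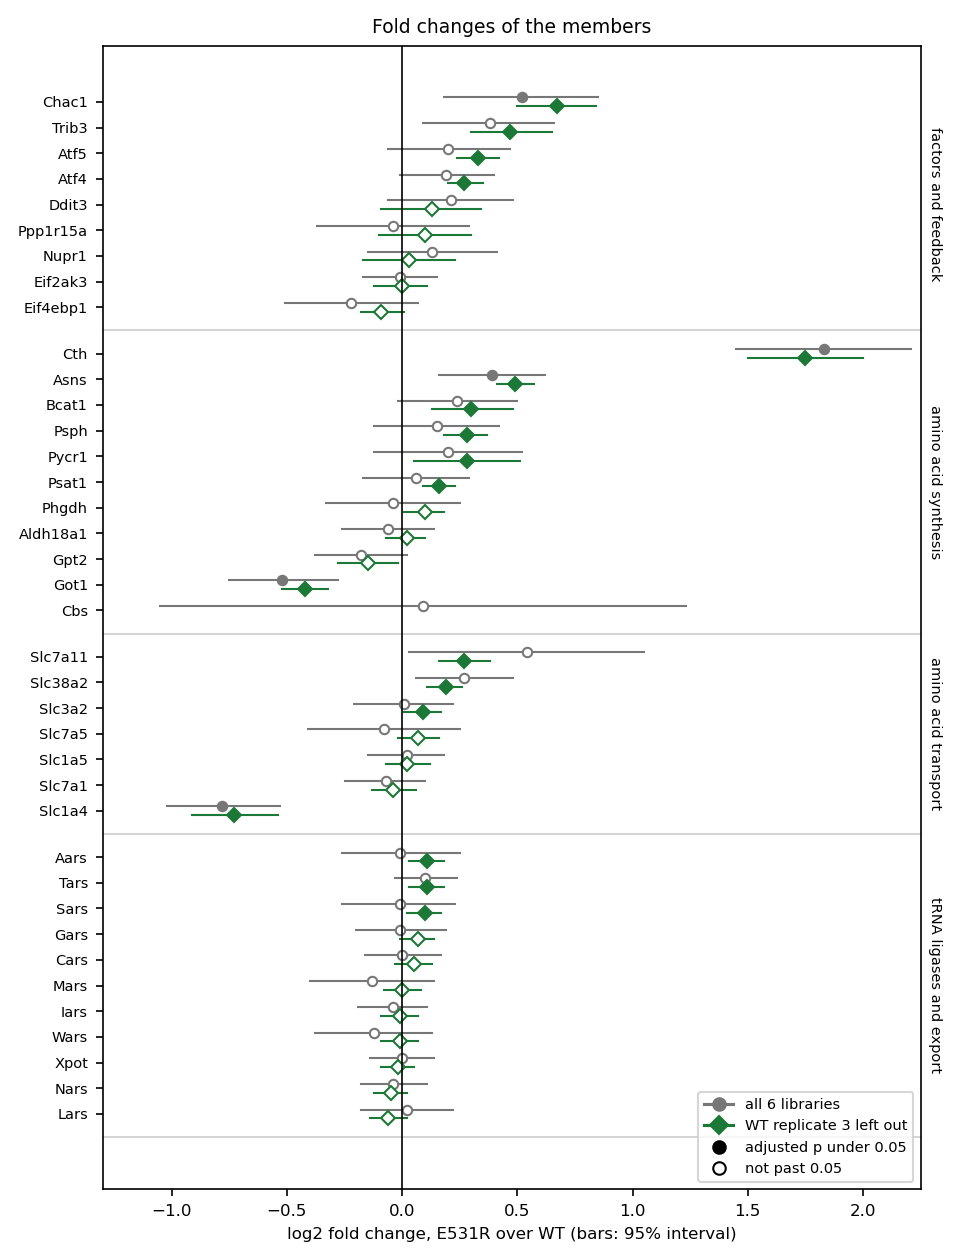
The x axis gives the log2 ratio of E531R to WT with its 95% interval, for 38 tested members by role, over all 6 libraries (grey circles) and without WT replicate 3 (green diamonds); filled symbols passed an adjusted p of 0.05, and Vldlr at -3.00 is not drawn. The tRNA ligases lie close to 0, with every log2 fold change without WT replicate 3 between -0.06 and 0.11, and Cth stands alone at 1.83.

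Promoter windows of several members hold letters that match the core of the C/EBP-ATF response element, the composite site at which ATF4 binds with a C/EBP partner. The motif searched was TGATGNAA on either strand, read on the reverse strand as TTNCATCA, in RefSeq windows of 300 bases (250 before to 50 after each gene's start, GRCm38.p6). It was present for 13 of the 30 members with a window (43.3%), against 2.8% of 9246 tested genes and 3.97% of all 32851 windows. The members were chosen as ATF4-type targets, so this share describes the choice. The 6 stretches below come from the members with the motif and the largest change without WT replicate 3. They are shown because the same motif lies near the starts of members that were higher and of members that were lower in E531R, with the match in capitals and each read 5′ to 3′ on the gene's strand.
Slc1a4, chr11:20332684-20332777, minus strand: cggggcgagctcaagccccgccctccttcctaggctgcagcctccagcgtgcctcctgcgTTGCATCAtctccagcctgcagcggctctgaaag
Got1, chr19:43524640-43524767, minus strand: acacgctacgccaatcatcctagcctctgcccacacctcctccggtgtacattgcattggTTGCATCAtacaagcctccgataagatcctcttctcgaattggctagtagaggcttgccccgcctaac
Chac1, chr2:119350992-119351116, plus strand: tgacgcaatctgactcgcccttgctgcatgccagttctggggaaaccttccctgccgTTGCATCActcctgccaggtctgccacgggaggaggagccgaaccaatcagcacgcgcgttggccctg
Asns, chr6:7693180-7693292, minus strand: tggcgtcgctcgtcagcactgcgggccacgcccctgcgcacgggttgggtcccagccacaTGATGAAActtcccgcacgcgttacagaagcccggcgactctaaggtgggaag
Trib3, chr2:152344031-152344106, minus strand: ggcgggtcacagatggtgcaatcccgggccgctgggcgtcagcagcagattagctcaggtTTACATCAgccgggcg
Pycr1, chr11:120643784-120643911, minus strand: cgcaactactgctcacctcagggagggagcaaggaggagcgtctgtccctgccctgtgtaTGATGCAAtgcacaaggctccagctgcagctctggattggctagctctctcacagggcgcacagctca

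Counted from the RefSeq gene start, the match began 4 bases before it in Slc1a4, 23 in Asns and 102 in Got1. It began 103 bases before that start in Pycr1, 193 before it in Chac1 and 14 after it in Trib3. The gene positions given above are those of GENCODE M21, and their starts can differ from the RefSeq starts. Slc1a4, Got1 and Chac1 held the same 8 letters, TTGCATCA, while Slc1a4 and Got1 fell and Chac1 rose. Slc7a11 held the motif on both strands, 66 and 47 bases before its RefSeq start. Tars, Aars, Gars, Iars and Nupr1 also held a match, with log2 fold changes between -0.04 and 0.13 over all 6 libraries. So did Vldlr, at -3.00 over all 6 libraries and without a value when WT replicate 3 was left out. A match is a description of letters, and binding was not measured.

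Other genes of the pathway are given by list, each beside the share of all genes called in either direction. That share was 19.9% over all 6 libraries, 47.2% without WT replicate 3 and 33% after removal of the GC and length trend. An unadjusted p under 0.05 over all 6 libraries was found for 4245 of all 12991 tested genes. The lists were chosen with earlier results of these data known, so their shares may reflect the choice. Of 23 tested further targets of the integrated stress response, 6 rose and 2 fell over all 6 libraries (34.8%). There were 12 higher and 4 lower without WT replicate 3 (69.6%), and 11 and 4 after removal of the trend (65.2%). Stc2, a secreted glycoprotein, had 1070, 1080 and 1011 in E531R libraries, against 1585, 1564 and 1731 in WT libraries (log2 fold change -0.62, limma adjusted p = 0.00118). Atf3, a stress-induced transcription factor, had 60.5, 50.6 and 72 in E531R libraries, against 1.6, 1.15 and 7.87 in WT libraries (log2 fold change 4.06, limma adjusted p = 0.00216). Atf3 reached the minimum mean of 10 only through the E531R libraries. Beyond these, Ddit4, Cebpb, Cdkn1a, Jdp2 and Aldh2 rose and Fyn fell, all singled out after their values were seen.

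Among 16 kinases, subunits and exchange factors of eIF2, 1 fell and 0 rose with limma over all 6 libraries (6.25%, with 3 at an unadjusted p under 0.05). There were 2 higher and 5 lower without WT replicate 3 (43.8%), and 1 and 1 after removal of the GC and length trend (12.5%). The gene that fell over all 6 libraries was Eif2b4, an exchange factor subunit, with a mean of 1082 ± 67.9 in E531R and 1478 ± 231 in WT (SD, n = 3 each), -0.44 apart on the log2 scale (limma adjusted p = 0.0445). Ppp1r15b, the constant partner of the eIF2 phosphatase, came next, with a log2 fold change of 0.18 that did not pass (limma adjusted p = 0.0867), while that of 0.20 without WT replicate 3 passed (limma adjusted p = 0.000173). Chaperones and signalling genes of the endoplasmic reticulum had 3 higher and 2 lower of 20 (25%). The counts were 4 and 7 without WT replicate 3 (55%), and 0 and 3 after removal of the GC and length trend (15%). Dnajb9, a co-chaperone, averaged 603 ± 31.6 in E531R and 412 ± 45.0 in WT (SD, n = 3 each), 0.56 apart on the log2 scale (limma adjusted p = 0.0102), and the secreted factor gene Manf 6215 ± 145 in E531R and 7969 ± 928 in WT (log2 fold change -0.35, limma adjusted p = 0.0402).

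Of 17 tested amino acid transporters outside the 40 genes, 5 rose and 1 fell (35.3%), and 7 were higher and 3 lower without WT replicate 3 (58.8%). Slc7a8, a transporter of neutral amino acids, had 619, 608 and 628 in E531R libraries, against 343, 351 and 350 in WT libraries (log2 fold change 0.83, limma adjusted p = 0.000289). The glutamate transporter gene Slc1a3 had 7.64, 4.87 and 8.76 in E531R libraries, against 67, 56.3 and 48 in WT libraries (log2 fold change -2.86, limma adjusted p = 0.000414), and reached the minimum mean only through the WT libraries. Of 19 tested further amino acid enzymes, 1 rose and 3 fell (21.1%). The counts were 4 and 8 without WT replicate 3 (63.2%), and 0 and 5 after removal of the GC and length trend (26.3%). Ass1, argininosuccinate synthase, averaged 662 ± 34.3 in E531R and 1322 ± 203 in WT (SD, n = 3 each), -0.99 apart on the log2 scale (limma adjusted p = 0.00138). Bckdhb, a subunit of the branched-chain ketoacid dehydrogenase, averaged 267 ± 9.32 in E531R and 340 ± 11.7 in WT (log2 fold change -0.35, limma adjusted p = 0.027).

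The 17 mitochondrial tRNA ligases had 0 higher and 1 lower with limma over all 6 libraries (5.88%, with 6 at an unadjusted p under 0.05). The counts were 2 and 7 without WT replicate 3 (52.9%), and 0 and 7 after removal of the GC and length trend (41.2%). Their median log2 fold change was -0.21, and -0.19 without WT replicate 3. The one that fell was Yars2, the tyrosine ligase, with a mean of 786 ± 32.4 in E531R and 988 ± 67.9 in WT (SD, n = 3 each), -0.33 apart on the log2 scale (limma adjusted p = 0.0303). Nars2, the asparagine ligase, averaged 359 ± 3.20 in E531R and 428 ± 14.3 in WT and did not pass over all 6 libraries (log2 fold change -0.25, limma adjusted p = 0.0611), but was called lower without WT replicate 3 (-0.26, limma adjusted p = 0.00822).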

How the data were processed

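RNA-seq gene values of 3 E531R and 3 WT libraries were analysed, with groups taken from the sample titles. The submitters' processing notes name HISAT2, cutadapt, FastQC, featureCounts, SAMtools and DESeq2, with GRCm38, and no source used here gives versions, annotation or strand setting. The deposited values are of unit signal: gene counts that the authors divided by 1 size factor per library. Whole reads were recovered, with 100% of values whole within 0.001 reads. The authors' log2 fold change, Wald score, p-value and adjusted p-value of WT over E531R stand beside these, per the file headers, and the sign is turned here.

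The test was limma 3.58.1 (R 4.3.3) on log2(value + 1) with a mean-variance trend, two-sided, for genes whose mean reached 10, Benjamini-Hochberg adjusted over all of them at 0.05. On recovered reads edgeR 4.0.16 called 1393 genes higher and 1251 lower. Log2 fold changes understate changes of low genes, and intervals on pooled reads cover counting error only. Size factors would hide a shift shared by all genes. The code was tested on simulated data.

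Alternatives were TMM, pseudocounts of 0.5 and 10, a minimum mean of 50 or none, edgeR, DESeq2 1.42.0, array weights, a replicate block, removal of a GC and length trend (GENCODE M21 coding transcripts, splines) and leaving out each library. Library values are given for members past the threshold, for the 12 largest changes among those past it only without WT replicate 3, and for Atf4, Ddit3, Trib3, Asns and Eif2ak3; of each other list the 2 genes with the smallest adjusted p are named. Members and lists were chosen with earlier results of these data known. Promoter sequences are RefSeq's, GRCm38.p6.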

Additional observations from a re-analysis of the deposited data

How the results depend on the processing

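Cth and Slc1a4 were called in the same direction under all 18 alternatives. Over all 6 libraries 3 members were higher. This number was 13 with array weights, 8 with the GC and length trend removed, 8 with the replicate block and that trend removed, 1 with the replicate block alone, and 14 with the trend removed and WT replicate 3 left out, an alternative chosen after seeing the data. Leaving out 1 library gave 1 to 16 higher members, 16 being the count without WT replicate 3. The number of lower members, 3 over all 6 libraries, stayed between 2 and 4 under every alternative. Without WT replicate 3, Aars (0.11) and Sars (0.10) passed with the other sign, and with the trend removed as well Aars (0.13) and Phgdh (0.09) did. Leaving out 1 library gave log2 fold changes from -0.08 to 0.11 for Aars and from -0.08 to 0.10 for Sars. A further 58 values of 16 members changed sign without passing in either fit. Of 692 values of a member under an alternative, 42 newly passed in the same direction, 21 of them without WT replicate 3, and 14 no longer passed. The cause was not tested.

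The replicate numbers were not shown to pair the libraries: deviations of same-numbered libraries correlated at 0.00, 0.19 and 0.24, and not every library correlated best with its own number. The replicate block lost the Asns and Chac1 calls (limma adjusted p = 0.055 and 0.0549), with their log2 fold changes at 0.39 and 0.52 as before. Vldlr and Cbs had no value with a minimum mean of 50 or without WT replicate 3, Vldlr also none without WT replicate 1 or 2, and Cbs none without E531R replicate 1 or 2. With 3 libraries a group, and reads in single digits for Vldlr and Slc7a3 in E531R, depth limits those genes.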
